A study of Mus musculus with 13 samples.

Results

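The keratin gene family was followed in mammary tumors and mammary glands of MMTV-HER2/neu mice. Its members were taken by symbol alone, as the genes of the count table named Krt followed by a number, without the keratin-associated protein genes (Krtap). By this rule 52 of 24421 genes belonged to the family. Of these, 14 exceeded 1 CPM in at least 1 of 13 libraries and 38 did not. CPM here is counts of a gene scaled to the library total (counts per 1e+06), with that total corrected by its TMM (trimmed mean of M values) factor.

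Keratins are the proteins of the intermediate filaments of epithelial cells, and each filament is built from a type I keratin joined to a type II keratin. In the mammary gland the luminal cells that line the ducts and alveoli are known for Krt8 and Krt18, together with Krt7 and Krt19, whereas the basal myoepithelial layer that surrounds them is known for Krt5 and Krt14, together with Krt15 and Krt17. Most other keratins belong to epidermis, hair and other stratified or specialised epithelia.

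All mice were MMTV-HER2/neu animals of line 202Mul/J on FVB/N (FVB/N-TgN), in which the promoter of the mouse mammary tumor virus drives a HER2/Neu transgene in breast epithelium, and all libraries bore the genotype label Wild type beside that strain name. Primary untreated tumors (n = 3) and mammary glands (n = 2) came from untreated mice. Primary STV tumors (n = 3) came from mice that drank stavudine, a nucleoside inhibitor of reverse transcriptase, at 1 mg/mL. Recurrent DMAG tumors (n = 3) had regrown under intraperitoneal 17-DMAG, an inhibitor of the chaperone HSP90, at 20 mg/kg 3 times a week. Recurrent DMAG+STV tumors (n = 2) had regrown under 17-DMAG with stavudine. By the paper's methods, 17-DMAG dosing went on until the regrown tumors reached their end point size. Regrowth and drug exposure at collection therefore cannot be told apart in comparisons of recurrent with primary tumors. Stavudine was begun at 2 months of age or once tumors had appeared. The paper describes the primary STV tumors as arising in mice already on stavudine. For the recurrent DMAG+STV libraries it was not stated which start applied. Ages at collection were not given in the sources used here. Nothing in the labels tied replicates to separate mice by an identifier, so p-values measure the spread between these libraries, which may be partly technical.

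Library totals lay between 39921388 and 56887708 counts. The TMM factor was 0.493 in gland 2 and 0.999 to 1.12 elsewhere, and 3 counts, used as the detection floor, equalled 0.107 CPM in gland 2 and 0.0587 to 0.0695 CPM in the other libraries. The tissue labels were checked against markers. The 10 luminal epithelial markers (Epcam, Cdh1, Gata3 and others) summed to 2162 to 3720 CPM in tumors and 2365 to 2534 CPM in glands. The glands differed from each other: the 6 milk protein genes summed to 27100 CPM in gland 1 and 692400 CPM in gland 2, and the 5 skeletal muscle markers summed to 4.77 CPM in gland 1 and 1495 CPM in gland 2. Among tumors, recurrent DMAG replicate 1 and recurrent DMAG+STV replicate 2 stood apart in several keratins, and results that rest on either are given with and without it.

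The 14 keratins above 1 CPM were 8 of type I and 6 of type II. They were the luminal Krt7, Krt8, Krt18 and Krt19, the basal Krt5, Krt14, Krt15 and Krt17, the simple epithelial Krt23, the epidermal Krt10, Krt79 and Krt80, Krt78 of stratified mucosa, and Krt222, a keratin-like gene. All 4 luminal and all 4 basal keratins passed this level, against 0 of 3 injury keratins, 0 of 9 inner root sheath keratins and 0 of 15 hair and nail keratins. The highest value in any library was 749 CPM in the luminal class and 55.2 CPM in the basal class, compared with 0.741 CPM for hair and nail keratins, 0.404 CPM for inner root sheath keratins and 0.139 CPM for the injury keratins. Only 9 keratins exceeded 10 CPM in a library. The members just inside the level of 1 CPM were Krt79 (highest value 1.49 CPM), Krt222 (1.90 CPM) and Krt78 (1.93 CPM). Just outside it were Krt77 (0.876 CPM), Krt83 (0.741 CPM) and Krt85 (0.718 CPM). In all, 34 keratins had a count in some library and 18 had none in any library.

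The injury keratins Krt6a, Krt6b and Krt16, which wounded or hyperproliferating epidermis makes, were at or near the floor everywhere. Krt6a had 2 counts in primary untreated replicate 1, 2 counts in recurrent DMAG replicate 1 and 0 in the other 11 libraries. Krt6b had 0 counts in all 13 libraries. Krt16 had 2 counts in each primary untreated tumor, 6, 4 and 0 counts in recurrent DMAG replicates 1 to 3, 0 counts in all primary STV and recurrent DMAG+STV tumors, and 0 and 2 counts in glands 1 and 2. Their few counts are uncertain, because 45.7% of the 50-base stretches of Krt6a occur in another gene, mostly Krt6b, and 37.6% of those of Krt16, mostly the predicted gene Gm11597. The skin keratinocyte and hair markers summed to 17.8 to 29.2 CPM in tumors and 16.8 to 18.8 CPM in glands, with Lor, the loricrin of the cornified layer, below 1 CPM in every library.

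Of the 51 keratins with an annotated position in GRCm38, 27 lay on chromosome 11 between 99232761 and 100269871 and 24 on chromosome 15 between 101347444 and 102032027. The first is the type I cluster and the second the type II cluster. Krt18 is the type I gene that sits with the type II cluster, at chr15:102028180-102032027 on the plus strand, 23.7 kb from its filament partner Krt8 at chr15:101996698-102004482 on the minus strand. Krt7 (chr15:101411043-101430313) and Krt5 (chr15:101707070-101712898) lie in the same cluster. On chromosome 11, Krt15 (chr11:100131758-100135928), Krt19 (chr11:100140810-100148665), Krt14 (chr11:100203162-100207548) and Krt17 (chr11:100256217-100261029) follow one another on the minus strand, with the nearly silent Krt9 and Krt16 among them.

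The windows at the start sites of the neighbours Krt8 and Krt18, whose levels moved together over the tumors, and of Krt5, which was far lower in tumors than in glands, are shown from RefSeq (GRCm38.p6), 250 bases before to 50 bases after the start, 5′ to 3′ on the strand of the gene. They span chr15:102004293-102004592 (minus strand), chr15:102027966-102028265 (plus strand) and chr15:101712856-101713155 (minus strand). Capitals mark matches to the TATA box motif TATAAA in either direction.
Krt8: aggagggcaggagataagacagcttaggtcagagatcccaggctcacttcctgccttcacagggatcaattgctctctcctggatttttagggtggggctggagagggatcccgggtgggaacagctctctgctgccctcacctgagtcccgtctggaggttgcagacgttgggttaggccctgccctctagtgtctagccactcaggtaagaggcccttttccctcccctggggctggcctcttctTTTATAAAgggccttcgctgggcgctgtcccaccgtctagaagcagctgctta
Krt18: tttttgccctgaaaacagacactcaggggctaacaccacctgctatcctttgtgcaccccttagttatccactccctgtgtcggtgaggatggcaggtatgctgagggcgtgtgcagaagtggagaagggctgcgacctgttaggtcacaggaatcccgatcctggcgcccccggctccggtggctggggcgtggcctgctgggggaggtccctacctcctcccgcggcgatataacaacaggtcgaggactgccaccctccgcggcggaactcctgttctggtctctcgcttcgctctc
Krt5: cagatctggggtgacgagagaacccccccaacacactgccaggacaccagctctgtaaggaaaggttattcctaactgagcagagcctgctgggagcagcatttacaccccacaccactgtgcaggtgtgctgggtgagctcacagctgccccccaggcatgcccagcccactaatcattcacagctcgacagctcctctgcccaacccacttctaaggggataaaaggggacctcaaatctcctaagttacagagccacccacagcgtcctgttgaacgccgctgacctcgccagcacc
The Krt8 window held 2 overlapping matches, 1 in each direction, within the 8 capitals, whereas the windows of Krt18 and Krt5 held none. The Krt8 matches began at -3 and -1, at the start site given by RefSeq. The 5′ end of the annotated Krt8 gene, at 102004482, lies before that start and inside the window. The 2 annotations thus place the start of Krt8 differently. Only exact matches were marked, so near matches were not counted in any window. Neither the GC box GGGCGG nor the AP-1 motif TGANTCA occurred in these 3 windows in either direction. Over all 32851 windows of the same length, TATAAA was present in 13.6%, GGGCGG in 35.7% and TGANTCA in 7.81%. RefSeq gave a window for 35 keratins. TATAAA was present in 2 of the 9 windows of keratins above 1 CPM and in 17 of the 26 windows of the other keratins. The Krt8 window is among the 2. The Krt14 window, among the 9, spans chr11:100205981-100206280 (minus strand) and lies inside the annotated gene, whose 5′ end is at 100207548. These counts take any position in a window and were not tested.

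Krt8 and Krt18, the filament pair of simple and luminal epithelium, made up most keratin counts in every library. Krt8 stood at 255, 384 and 279 CPM in primary untreated replicates 1 to 3, at 278, 375 and 327 CPM in primary STV, at 637, 337 and 274 CPM in recurrent DMAG, at 342 and 271 CPM in recurrent DMAG+STV, and at 245 and 230 CPM in glands 1 and 2. Both glands lay below all 11 tumors, by a small margin. Krt18 stood at 371, 647 and 464 CPM in primary untreated, at 372, 678 and 448 CPM in primary STV, at 749, 525 and 371 CPM in recurrent DMAG, at 509 and 221 CPM in recurrent DMAG+STV, and at 319 and 204 CPM in the glands. The range of Krt18 in tumors reached into that of the glands through recurrent DMAG+STV replicate 2 alone. Both genes were highest in recurrent DMAG replicate 1. Over the tumors Krt8 varied 2.50-fold and Krt18 3.39-fold from the lowest to the highest library, narrow ranges beside the 162-fold of Krt19. Together they held 90.2% to 97.2% of all keratin counts in tumors, against 77.1% in gland 1 and 54.7% in gland 2. Of the 50-base stretches of Krt8, 26.9% also occur in the pseudogene Krt8-ps, so part of its reads may have been lost or shared in counting.

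**Figure D1:**
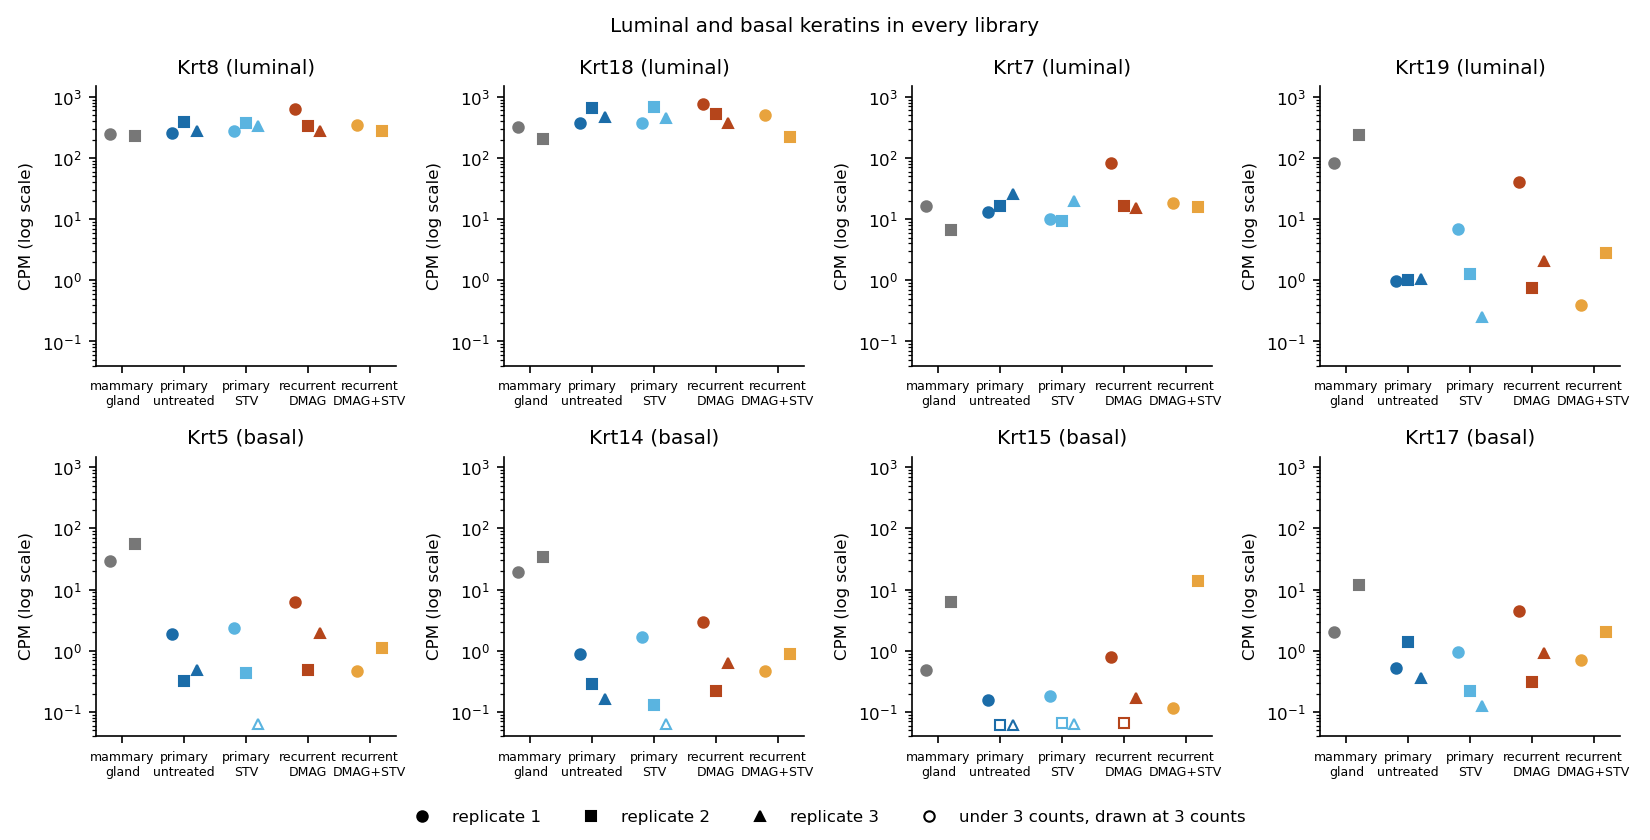
CPM on a log axis in each of the 13 libraries for the 4 luminal keratins (upper panels) and the 4 basal keratins (lower panels), with symbols for the replicate and open symbols for libraries under 3 counts, drawn at 3 counts. Krt8 and Krt18 stay between 204 and 749 CPM throughout, whereas Krt19, Krt5 and Krt14 in the 2 glands lie above every tumor.

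Krt19, a small type I keratin of luminal and ductal cells, separated the glands from the tumors. It stood at 81.3 CPM in gland 1 and 234 CPM in gland 2. In primary untreated tumors it stood at 0.956, 1.02 and 1.04 CPM, in primary STV at 7.00, 1.28 and 0.253 CPM, in recurrent DMAG at 41.0, 0.759 and 2.06 CPM, and in recurrent DMAG+STV at 0.391 and 2.77 CPM. Every tumor lay below both glands, and recurrent DMAG replicate 1 was closest to them. As a share of Krt8 counts, which does not depend on the scaling of the library, Krt19 amounted to 33.2% in gland 1 and 101.8% in gland 2 but to 0.0774% to 6.44% in tumors. None of the 50-base stretches of Krt19 occurs in another gene.

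Krt7, a type II keratin of ducts and glands, did not separate them. It reached 12.9, 16.6 and 25.3 CPM in primary untreated, 10.04, 9.23 and 19.7 CPM in primary STV, 82.1, 16.4 and 15.2 CPM in recurrent DMAG, 18.7 and 15.8 CPM in recurrent DMAG+STV, and 16.2 and 6.71 CPM in the glands. The 82.1 CPM of recurrent DMAG replicate 1 stood far above the rest, which overlapped between groups. Krt23, a type I keratin of simple epithelia, stood at 12.7, 11.3 and 21.5 CPM in primary untreated, 10.2, 10.7 and 22.1 CPM in primary STV, 6.02, 24.3 and 14.1 CPM in recurrent DMAG, 7.18 and 8.75 CPM in recurrent DMAG+STV, and 6.54 and 1.86 CPM in the glands. Its tumor values overlapped with gland 1 through recurrent DMAG replicate 1, where Krt23 was lowest among tumors.

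The basal pair Krt5 and Krt14 was at its highest in the glands. Krt5, the type II partner, stood at 29.8 and 55.2 CPM in glands 1 and 2, at 1.91, 0.326 and 0.481 CPM in primary untreated, at 2.33 and 0.435 CPM and with 0 counts in primary STV, at 6.18, 0.491 and 1.97 CPM in recurrent DMAG, and at 0.469 and 1.10 CPM in recurrent DMAG+STV. Krt14, the type I partner, stood at 19.8 and 33.8 CPM in the glands, at 0.876, 0.285 and 0.16 CPM in primary untreated, at 1.66 and 0.131 CPM and with 0 counts in primary STV, at 2.92, 0.223 and 0.630 CPM in recurrent DMAG, and at 0.469 and 0.897 CPM in recurrent DMAG+STV. For both genes every tumor lay below both glands, recurrent DMAG replicate 1 was the highest tumor, and primary STV replicate 3 had no counts, which allows up to 0.0194% of its Krt8 counts. Some of their sequence is shared, since 8.52% of the 50-base stretches of Krt5 and 13.9% of those of Krt14 occur in another gene, mostly Krt6a and Krt16.

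Krt17, a type I keratin of basal cells and skin appendages, reached 2.06 and 12.1 CPM in the glands, 0.518, 1.39 and 0.361 CPM in primary untreated, 0.967, 0.218 and 0.127 CPM in primary STV, 4.42, 0.313 and 0.923 CPM in recurrent DMAG, and 0.704 and 2.04 CPM in recurrent DMAG+STV. The tumor range overlapped with gland 1 through recurrent DMAG replicate 1. Krt15, a type I keratin of basal cells of stratified epithelia, had 24 and 178 counts in glands 1 and 2 (0.485 and 6.35 CPM) but 690 counts (14.1 CPM) in recurrent DMAG+STV replicate 2. In the other tumors it had 8, 2 and 0 counts in primary untreated, 8, 0 and 0 in primary STV, 34, 2 and 8 in recurrent DMAG and 6 in recurrent DMAG+STV replicate 1. A tumor rather than a gland thus held the highest Krt15. The same tumor had the highest Krt79 (73 counts, 1.49 CPM) and the highest Krt4 (28 counts, 0.571 CPM), and, among tumors, the lowest Krt18 and Krt80.

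Levels of different keratins were compared per length, as CPM per kilobase of the principal transcript. By their median over the 11 tumors, Krt18 stood at 323 CPM per kb, Krt8 at 167, Krt23 at 7.24, Krt7 at 4.01, Krt10 at 1.94 and Krt19 at 0.662. Krt17 followed at 0.454, Krt80 at 0.448, Krt14 at 0.276, Krt5 at 0.224 and Krt222 at 0.222, and Krt79, Krt15 and Krt78 lay at or below 0.0855 CPM per kb. The order Krt18 above Krt8 above Krt23 held in 11 of 11 tumors at both steps. Krt23 lay above Krt7, and Krt7 above Krt10, in 10 of 11. Further down the order was less regular. Krt19 lay above Krt17, and Krt222 above Krt79, in 9 of 11 tumors, and Krt10 above Krt19, and Krt15 above Krt78, in 8 of 11. Krt80 lay above Krt14, and Krt5 above Krt222, in 7 of 11, Krt79 above Krt15 in 6, Krt17 above Krt80 in 5 and Krt14 above Krt5 in 3. The median order of these last 5 pairs of neighbours was thus not a regular one. Krt5 and Krt14 both had 0 counts in primary STV replicate 3, and in most tumors Krt5 lay above Krt14. None of these orders was tested. In the glands the order was another. Krt19 stood at 51.6 CPM per kb in gland 1, behind Krt18 (222) and Krt8 (125), and at 149 in gland 2, above Krt18 (142) and Krt8 (118). Krt5 (13.5 and 25.1) and Krt14 (11.7 and 19.9) came next in both glands. The sum of type I keratins per length was 1.20 to 2.48 times that of type II keratins in tumors and 2.05 and 2.24 times in the glands. With Krt18 as the sole type I keratin the ratio was 1.07 to 2.42 in tumors but 1.55 and 0.977 in glands 1 and 2, where Krt19 supplied much of the remainder.

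The balance of the classes followed from these levels. Of the counts of the 8 luminal and basal keratins, the basal share was 7.29% in gland 1 and 13.7% in gland 2. In primary untreated tumors it was 0.538%, 0.194% and 0.130%, in primary STV 0.764%, 0.0736% and 0.0159%, in recurrent DMAG 0.939%, 0.122% and 0.555%, and in recurrent DMAG+STV 0.202% and 3.42%. Every tumor lay below both glands, with a tumor median of 0.202%. The 95% Wilson interval addresses counting error only. It treats counts as independent, which reads are not, so it is likely too narrow even for that error. It was 7.03% to 7.57% in gland 1, 0.0073% to 0.0347% in the lowest tumor (6 basal counts of 37675) and 3.21% to 3.65% in the highest. The highest share, in recurrent DMAG+STV replicate 2, was mostly Krt15. On the log2 scale the basal to luminal ratio was -3.16 ± 0.72 (SD, n = 2) in glands, -8.71 ± 1.06 (n = 3) in primary untreated, -10.01 ± 2.82 (n = 3) in primary STV, -7.96 ± 1.54 (n = 3) in recurrent DMAG and -6.88 ± 2.92 (n = 2) in recurrent DMAG+STV. The ranges of all 4 tumor groups overlapped, and the largest distance between their means, from primary STV to recurrent DMAG+STV, lay between the groups with the widest spread; this ratio was not tested. The sum of the luminal keratins hardly separated tissues, at 662 and 676 CPM in the glands and 510.5 to 1509 CPM in tumors, while the basal sum was 52.1 and 107 CPM in the glands and 0.127 to 18.1 CPM in tumors.

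**Figure D2:**
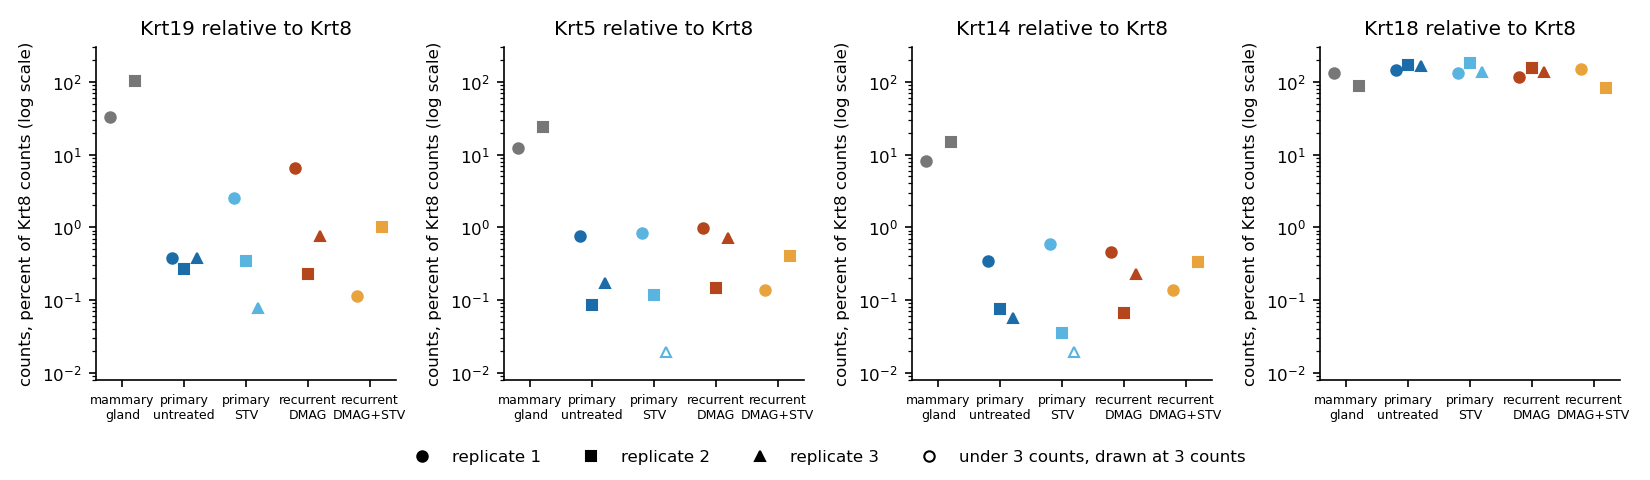
Counts of Krt19, Krt5, Krt14 and Krt18 in each library as a percent of the Krt8 counts of that library, on a log axis. Krt19, Krt5 and Krt14 are lower relative to Krt8 in all 11 tumors than in both glands, Krt5 at 12.2% and 24.0% in the glands against 0% to 0.971% in tumors, while Krt18 keeps a like share.

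The comparison of the 4 tumor groups with the glands asked which keratins differ between HER2/neu tumors and the tissue they arise in. Krt19, Krt5 and Krt14 were lower in tumors. The fold changes are the mean of the 4 tumor groups against the glands on the log2 scale, from edgeR's quasi-likelihood test with Benjamini-Hochberg adjustment over 17135 genes. Krt19 changed by -5.79 (SE 1.06, adjusted p = 0.00924), Krt5 by -5.18 (SE 0.94, adjusted p = 0.00907) and Krt14 by -5.28 (SE 0.97, adjusted p = 0.00927). These 3 of the 14 keratins above 1 CPM were called, all lower, whereas over all genes 10.4% were called, 8.81% lower and 1.6% higher. An unadjusted p under 0.05 was reached by 8 of the 14 and by 29.6% of all genes. The values of the 2 groups did not overlap for 4 keratins that were lower in tumors (Krt5, Krt14, Krt19 and Krt222; 7.37% of all genes) and for 1 that was higher (Krt8; 4.14% of all genes). The median log2 fold change was -0.79 over the 14 keratins, -4.30 over the 4 basal keratins and -0.02 over all genes.

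The other basal keratins had values on the same side without passing the threshold, Krt17 at -2.88 (SE 0.84, adjusted p = 0.0548, edgeR) and Krt15 at -3.42 (SE 1.29, adjusted p = 0.112). Among luminal keratins other than Krt19, values lay above 0 and none was called. Krt18 stood at 0.85 (SE 0.39, adjusted p = 0.173), Krt7 at 0.79 (SE 0.64, adjusted p = 0.425) and Krt8 at 0.50 (SE 0.29, adjusted p = 0.266). Krt23 stood at 1.58 (SE 0.61, adjusted p = 0.116), from a mean of 4.20 ± 3.32 CPM (SD, n = 2) in glands to 13.5 ± 6.32 CPM (n = 11) in tumors. Krt78 stood at -2.58 (SE 0.99, adjusted p = 0.117) and Krt222 at -1.25 (SE 0.55, adjusted p = 0.157), both from fewer than 2 CPM in every library, and Krt10 (-0.32), Krt79 (0.19) and Krt80 (-0.04) lay near 0. In mean CPM, Krt19 was 29.7-fold, Krt5 29.8-fold and Krt14 35.7-fold higher in glands, while Krt8 was 1.44-fold and Krt18 1.86-fold higher in tumors.

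The calls rested on the glands. Without gland 2, 0 keratins were called by edgeR and Krt19 stood at -4.75 (adjusted p = 0.0930), Krt5 at -4.58 (adjusted p = 0.0808) and Krt14 at -4.75 (adjusted p = 0.0757). Without gland 1, 5 keratins were called, Krt17 and Krt23 in addition. Without recurrent DMAG replicate 1 and recurrent DMAG+STV replicate 2, also 5 were called, Krt15 and Krt17 in addition.

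Markers of other cells moved with these keratins. The 7 basal and myoepithelial markers summed to 404 and 1117 CPM in glands 1 and 2 and to 54.2 to 383 CPM in tumors, and 5 of them were called lower in tumors by edgeR (Acta2, Cnn1, Myh11, Mylk and Tagln), whereas the basal cell factor Trp63 stood at -0.34 (adjusted p = 0.769). The 5 adipocyte markers (643 to 759 CPM in glands, 5.23 to 85.6 CPM in tumors) were all called lower, as were 4 of 6 milk protein genes, all 4 tested lymphocyte markers (median -4.34) and 1 of 5 fibroblast markers, Pdgfra (-1.87, adjusted p = 0.0121), with the other 4 at -2.75 to -0.63. The lymphocyte markers were high in gland 1 alone. Their sum was 328 CPM there but 36.9 CPM in gland 2, within the 19.5 to 60.4 CPM of tumors. None of the 5 skeletal muscle markers was called (median -2.02). Of 10 luminal epithelial markers, Gata3 was called higher (0.94, adjusted p = 0.0322) and Elf5 lower (-1.80, adjusted p = 0.0134). The part of these cells in the keratin values was not tested. In bulk tissue, fewer cells of a type and less RNA per cell cannot be told apart.

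**Figure D3:**
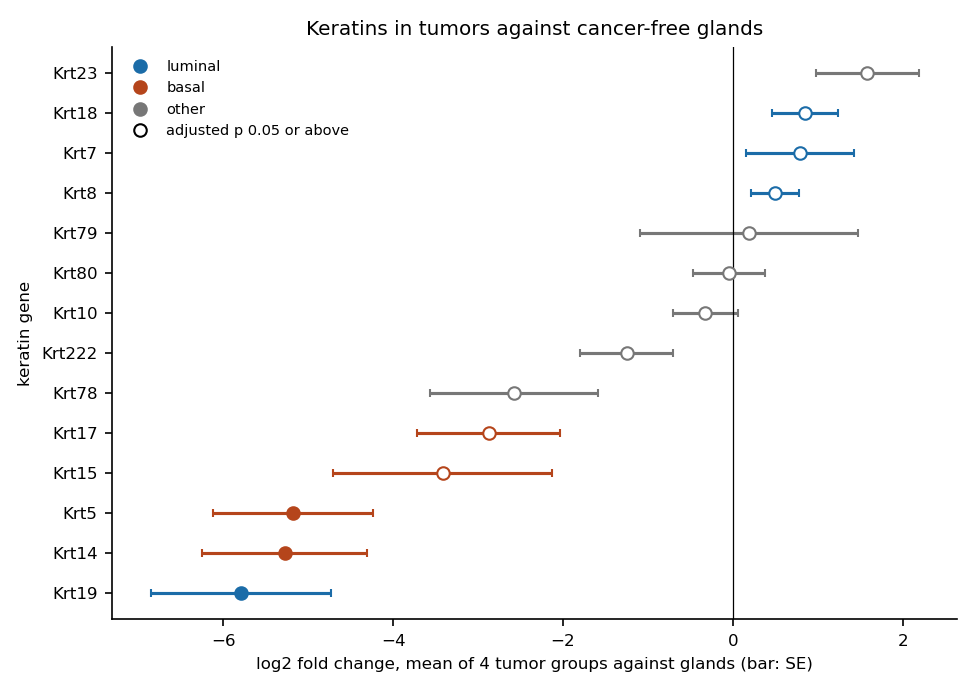
Log2 fold change of the 14 keratins above 1 CPM in the mean of the 4 tumor groups (11 libraries) against glands (2 libraries), with bars for the standard error and filled points for an adjusted p under 0.05. Krt19, Krt14 and Krt5 lie between -5.79 and -5.18, and Krt8, Krt18, Krt7 and Krt23 lie between 0.50 and 1.58.

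Primary untreated tumors alone were compared with the glands as well, and the 5 keratins named by the rule kept their directions. By edgeR 0 keratins were called, against 2.11% of all genes (1.83% lower and 0.28% higher), and 7 of the 14 had an unadjusted p under 0.05, against 24.5% of all genes. By DESeq2 5 and by limma voom 3 keratins were called. Krt19 stood at -7.29 (SE 1.81, adjusted p = 0.0617, edgeR), Krt14 at -5.92 (SE 1.58, adjusted p = 0.0695), Krt5 at -5.54 (SE 1.51, adjusted p = 0.0734), Krt18 at 0.92 (SE 0.44, adjusted p = 0.227) and Krt8 at 0.37 (SE 0.33, adjusted p = 0.497). The groups of 3 and 2 did not overlap for 7 keratins that were lower (20.4% of all genes) and 3 that were higher (Krt8, Krt18 and Krt23; 18.8% of all genes).

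Across the 11 tumors the filament partners moved together. Of 8 pairs of genes, tested on log2(CPM + 0.5) with 100000 permutations and Benjamini-Hochberg adjustment over the 8, Krt8 and Krt18 had r = 0.783 (permutation p = 0.00603, adjusted 0.0161) and rho = 0.945 (adjusted permutation p = 0.0004), with r = 0.846 without recurrent DMAG replicate 1 and primary untreated replicate 1. Krt5 and Krt14 had r = 0.946 (permutation p = 2e-05, adjusted 0.00016) and rho = 0.864 (adjusted permutation p = 0.00376), with r = 0.872 without recurrent DMAG replicate 1 and primary STV replicate 1. Values centred within each tumor group gave r = 0.836 for Krt8 with Krt18 and r = 0.967 for Krt5 with Krt14. Krt14 and Krt17 had r = 0.824 (adjusted permutation p = 0.0074) and, without the same 2 tumors, r = 0.714 (adjusted permutation p = 0.0672). Their reads could partly be exchanged, since 3.66% of the 50-base stretches of Krt17 occur in Krt14.

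The other 5 pairs did not pass the adjusted threshold. The luminal Krt8 and the basal Krt14 had r = 0.319 (adjusted permutation p = 0.382) and r = -0.575 without the 2 tumors farthest from the Krt8 median, and the luminal Krt8 and Krt19 had r = 0.563 (adjusted permutation p = 0.145), rho = -0.0273 and r = -0.576 without those 2. Both values thus turned negative without recurrent DMAG replicate 1 and primary untreated replicate 1, which were left out together and not singly. Krt14 had r = 0.645 (adjusted permutation p = 0.0638) with the myoepithelial actin Acta2 and r = 0.387 (adjusted permutation p = 0.323) with Trp63. Krt10 and the cornified layer gene Lor had r = 0.234 (adjusted permutation p = 0.485).

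Among the tumors, the comparisons asked whether stavudine or regrowth under continued 17-DMAG goes with a different keratin make-up. By edgeR 0 keratins were called in each of the 6 comparisons, and 0 of 16870 genes (0%), so keratins shared this with the whole table. The share of all genes with an unadjusted p under 0.05 was 3.76% for stavudine in primary tumors, 9.69% for recurrence without stavudine, 10.1% for recurrence under stavudine, 7.84% for stavudine in recurrent tumors, 13.6% for recurrence over both arms and 7.84% for the difference between the arms. The numbers of keratins above 1 CPM at that level were 0, 2, 1, 2, 1 and 1 of 14. Limma voom called 0 keratins in all 6, and DESeq2 called 1 in each of the last 4 and 0 in the first and second. The comparisons share libraries, so their values are given side by side.

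Primary STV against primary untreated tumors gave small luminal values. Krt8 stood at 0.08 (SE 0.30) and Krt18 at 2.97e-05 (SE 0.38) on the log2 scale, with an adjusted p of at least 0.9998 for each tested keratin in edgeR's quasi-likelihood test. The basal Krt5 (0.01, SE 1.38) and Krt14 (0.42, SE 1.44) had wide errors, with 0 to 101 counts of Krt5 and 0 to 72 of Krt14 in these 6 tumors. The smallest p-values were those of Krt80 (0.76, SE 0.42, unadjusted p = 0.0998), Krt4 and Krt19 (1.49, SE 1.49, unadjusted p = 0.342). Krt4, a keratin of stratified mucosa, had 0 counts in all primary untreated tumors and 0, 4 and 0 counts in primary STV replicates 1 to 3, too few for a fold. No keratin above 1 CPM separated these 2 groups, as 5% of all genes did upward and 5.83% downward.

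Krt80, a type II keratin found in many epithelia as cells differentiate, had the smallest p of the family for recurrence without stavudine and for the difference between the arms. It stood at 1.37, 0.795 and 0.902 CPM (69, 39 and 45 counts) in primary untreated, at 2.83, 3.37 and 2.67 CPM (122, 151 and 127 counts) in recurrent DMAG, at 1.70, 1.24 and 2.32 CPM (74, 57 and 110 counts) in primary STV and at 1.29 and 0.489 CPM (66 and 24 counts) in recurrent DMAG+STV. The recurrent DMAG tumors lay above all other tumors, and recurrent DMAG+STV tumors overlapped with primary STV. Its log2 value was 1.51 (SE 0.42, unadjusted p = 0.00549, adjusted p = 0.51) for recurrence without stavudine and -0.97 (SE 0.48, unadjusted p = 0.0714) under stavudine. The difference between the arms was -2.48 (SE 0.64, unadjusted p = 0.00346, adjusted p = 0.452, edgeR), and for stavudine in recurrent tumors the value was -1.72 (SE 0.49, unadjusted p = 0.00626, adjusted p = 0.403). DESeq2 called the last 2, at -2.51 (adjusted p = 0.0199) and -1.74 (adjusted p = 0.0247). Non-overlap of Krt80 in the higher direction was shared by 7.65% of all genes for recurrence without stavudine (7.45% in the lower direction), and in the lower direction by 10.5% for stavudine in recurrent tumors.

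The remaining named values of recurrence without stavudine were 0.43 (SE 0.30) for Krt8, 0.13 (SE 0.38) for Krt18, 1.66 (SE 1.40) for Krt5 and 1.5 (SE 1.44) for Krt14. Without recurrent DMAG replicate 1 they were 0.0039 for Krt8, -0.135 for Krt18, 0.44 for Krt5 and -0.0438 for Krt14. Krt19 stood at 3.85 (SE 1.61, unadjusted p = 0.0393, adjusted p = 0.51, edgeR) and at 0.50 without recurrent DMAG replicate 1, which carried 1771 of its counts against 34 and 98 in replicates 2 and 3. In the same tumor the 5 fibroblast markers summed to 5571 CPM, against 239 to 1800 CPM in the other tumors, and the basal and myoepithelial markers to 313 CPM. The part of these cells in its keratin values was not tested. Krt4 had 10, 2 and 0 counts in recurrent DMAG replicates 1 to 3.

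Recurrence under stavudine gave -0.09 (SE 0.34) for Krt8, -0.45 (SE 0.43) for Krt18, -0.23 (SE 1.55) for Krt5 and 0.20 (SE 1.58) for Krt14. Without recurrent DMAG+STV replicate 2 they were 0.0641 for Krt8, 0.0274 for Krt18, -0.98 for Krt5 and -0.36 for Krt14. Krt15 stood at 6.83 (SE 2.12, unadjusted p = 0.00975, adjusted p = 0.376, edgeR) and at 0.92 without recurrent DMAG+STV replicate 2, and DESeq2 called it at 6.85 (adjusted p = 0.0364). Krt79 stood at 2.69 (SE 1.45, unadjusted p = 0.0946, edgeR) and at 0.71 without recurrent DMAG+STV replicate 2. Krt10 and Krt23 did not overlap between the groups and were lower in the recurrent tumors, as were 17.9% of all genes. In recurrent DMAG+STV replicate 2 the basal and myoepithelial markers summed to 383 CPM and the skeletal muscle markers to 1325 CPM, each the highest among tumors. Their part in its Krt15 was not tested.

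Stavudine in recurrent tumors gave -0.44 (SE 0.34) for Krt8, -0.58 (SE 0.43) for Krt18, -1.87 (SE 1.63) for Krt5 and -0.87 (SE 1.61) for Krt14. Without both tumors that stand apart these were 0.16 for Krt8, 0.19 for Krt18, -1.39 for Krt5 and 0.13 for Krt14, and Krt80 was -1.22. Krt15 stood at 4.41 (SE 1.85, unadjusted p = 0.0395, adjusted p = 0.609, edgeR), which became -1.49 without recurrent DMAG+STV replicate 2. Krt19 stood at -3.20 (SE 1.84, unadjusted p = 0.114), which became 0.16 without recurrent DMAG replicate 1. The Krt15 and Krt19 values thus each turned on a single tumor.

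Averaged over both arms, recurrent against primary tumors gave 0.17 (SE 0.23) for Krt8, -0.16 (SE 0.29) for Krt18, 0.72 (SE 1.03) for Krt5 and 0.85 (SE 1.06) for Krt14. Without both tumors that stand apart these were 0.0345 for Krt8, -0.0533 for Krt18, -0.27 for Krt5 and -0.20 for Krt14, and Krt79, at 2.05 with them, was 0.47. The smallest p-values belonged to Krt15 (4.54, SE 1.39, unadjusted p = 0.00903, adjusted p = 0.31, edgeR; 1.6 without recurrent DMAG+STV replicate 2), Krt4 (unadjusted p = 0.0462, on 4 counts in the 6 primary tumors and 40 in the 5 recurrent tumors) and Krt79 (2.05, SE 0.99, unadjusted p = 0.0665). All 14 keratins overlapped between primary and recurrent tumors, and 1.34% of all genes did not, 0.652% being higher and 0.688% lower in recurrent tumors. DESeq2 called Krt15 (4.6, adjusted p = 0.0333). The difference between the arms, stavudine minus plain water, was -0.51 (SE 0.46) for Krt8, -0.58 (SE 0.58) for Krt18, -1.88 (SE 2.11) for Krt5 and -1.30 (SE 2.16) for Krt14. For Krt19 it was -4.69 (SE 2.35, unadjusted p = 0.0753), and -1.36 without recurrent DMAG replicate 1. For Krt15 it was 4.57 (SE 2.76, unadjusted p = 0.131), and it turned to -1.36 without recurrent DMAG+STV replicate 2. Without recurrent DMAG replicate 1, Krt8 stood at -0.0985, Krt5 at -0.68 and Krt14 at 0.23.

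**Figure D4:**
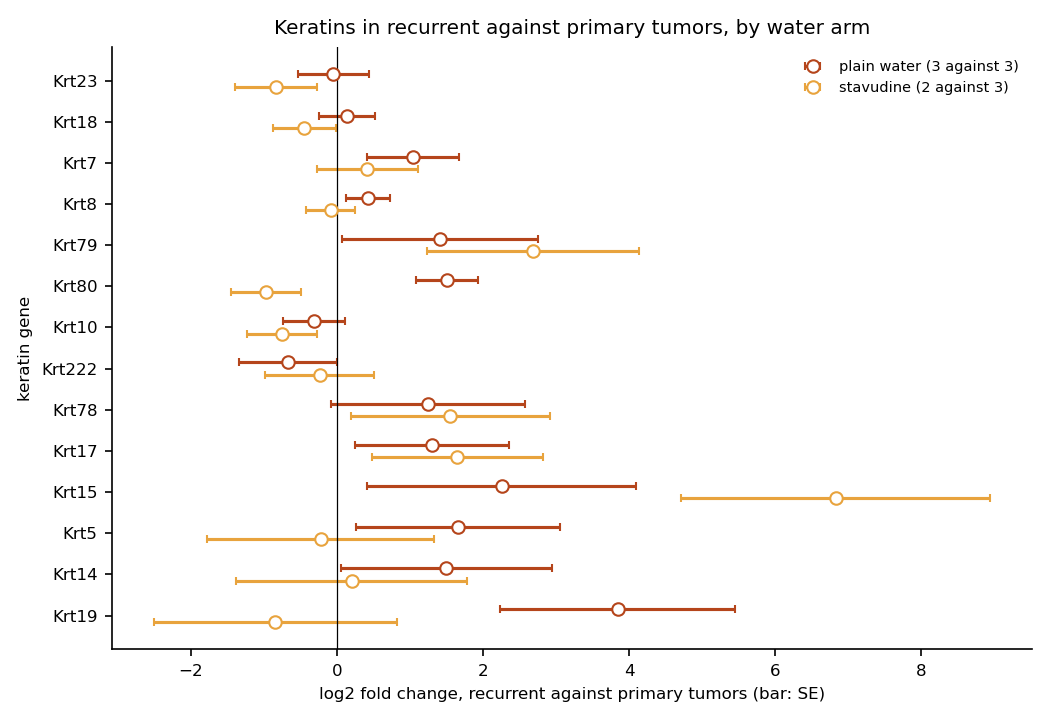
Log2 fold change of recurrent against primary tumors for the 14 keratins in plain water (3 against 3 libraries) and under stavudine (2 against 3), with bars for the standard error and open points since none passed an adjusted p of 0.05. Krt80 lies at 1.51 in plain water and -0.97 under stavudine, and Krt15 lies at 6.83 under stavudine, from 1 tumor.

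Genes of desmosomes and hemidesmosomes, the junctions that anchor keratin filaments (plaque proteins, cadherins, integrins and a collagen), and the mesenchymal filament gene Vim were set beside the family. Of 20 such genes, 5 were called between tumors and glands by edgeR (2 lower and 3 higher), against 10.4% of all genes (8.81% lower and 1.6% higher). The hemidesmosomal collagen Col17a1 (-4.19, adjusted p = 0.00221) and the desmosomal cadherin Dsc3 (-5.67, adjusted p = 0.0168) were lower in tumors. The Dsc3 value rested on gland 1, at 7.64 CPM. Gland 2 had 0.214 CPM of Dsc3, less than the 0.617 CPM of primary untreated replicate 1. The plaque proteins Eppk1 (1.35, adjusted p = 0.0444) and Pkp3 (1.12, adjusted p = 0.0447) and the integrin Itgb4 (0.87, adjusted p = 0.0299) were higher. The median of the 20 was 0.77, with 16 above 0, beside -0.02 over all genes. Desmoplakin (Dsp), which ties keratins to the desmosome, reached 120 and 43.1 CPM in glands 1 and 2 and 201.8 to 346 CPM in 8 tumors, but at 23.4 CPM in recurrent DMAG replicate 1 and at 71.8 and 124.5 CPM in the 2 recurrent DMAG+STV tumors. In the 6 comparisons among tumors edgeR called 0 of these genes.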

How the data were processed

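RNA was measured in 11 tumors and 2 mammary glands. The deposited values were read counts per gene, which the authors made from stranded total RNA depleted of ribosomal RNA with bcl2fastq 2.20, STAR, and featureCounts of Subread 1.6.2 on mm10/GRCm38 with UCSC annotation. The strand setting and the handling of reads with several matches were not given in the sources used here. Counts of 1 to 20 were even numbers in 71.9% to 75.7% of cases per library, against 48.7% to 50.7% for counts above 1000, so that low counts move mostly in steps of 2.

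Samples were grouped by title. Genes were tested with edgeR 4.0.16 (R 4.3.3; filterByExpr, TMM, quasi-likelihood with robust dispersion), with adjustment by Benjamini and Hochberg over all tested genes and a call at an adjusted p under 0.05. The comparisons with glands were fitted on 13 libraries (17135 genes, 19 keratins) and the others on the 11 tumors (16870 genes, 18 keratins), and all 14 keratins above 1 CPM were tested in both. A low-count filter favours keratins that are high in some group, so counts over the tested keratins are descriptions. Alternatives were DESeq2 1.42.0, limma voom 3.58.1, other scalings and filters, left-out libraries and a replicate block. On simulated counts for the tumor and gland comparison (15384 genes), edgeR called 98% of 8-fold and 15% of 2-fold changes. For stavudine in primary tumors (15164 genes) it called 96% of 8-fold and 7% of 2-fold changes. In the measured counts of tumors against glands, Krt17 at -2.88 (SE 0.84) and Krt15 at -3.42 (SE 1.29) were not called. Whether the simulated shares hold for keratins with few counts or a wide spread was not tested.

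The family, its classes, the marker and anchoring lists, and the tests were chosen with earlier results of these data known. Named in each comparison were Krt8, Krt18, Krt5 and Krt14, each called keratin, and, where none was called, the 3 keratins with the smallest p. Library values were given for luminal, basal and injury keratins and those reaching 10 CPM; Krt80, Krt79, Krt4 and Dsp were given per library after their values were seen. Positions came from GENCODE M21 and start-site windows from RefSeq. Correlations and figures were made in Python 3.11.15 with numpy 2.4.6, pandas 2.3.3 and scipy 1.17.1.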

Additional observations from a re-analysis of the deposited data

How the results depend on the processing

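The depth limits basal keratins in tumors, whose Krt5 and Krt14 counts lay between 0 and 267 per library, and the 2 glands limit every comparison with them. Library totals without TMM factors, and the fit without recurrent DMAG replicate 1 and recurrent DMAG+STV replicate 2 together, were added after seeing the data. The causes of the changes below were not tested, and the fit of the compared groups alone was not run where all groups of a fit entered. Of the recomputed values of single keratins, 949 kept their direction and side of the threshold, 54 changed direction, 16 newly passed it and 5 no longer did. In the comparison of tumors with glands, Krt5 and Krt14 were called in 20 of 21 alternatives, Krt19 in 18 and Krt17 in 5, with no keratin reversed among Krt8, Krt18, Krt5, Krt14 and Krt19. Krt19 had no adjusted p in DESeq2. At 10 CPM, 9 keratins were counted in place of 14.

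DESeq2 called 3242 genes for tumors against glands (edgeR 1785), 2352 for primary untreated tumors against glands (edgeR 361), 17 for stavudine in primary tumors, 61 for recurrence without and 331 under stavudine, 277 for stavudine in recurrent tumors, 419 for recurrence over both arms and 189 for the difference between the arms (edgeR 0 in each). For tumors against glands DESeq2 called 4 keratins, where edgeR and limma voom each called 3. Krt19, without an adjusted p, was not among the 4. The DESeq2 keratin calls were 5 for primary untreated tumors against glands, where limma voom made 3, and 1 in each of the last 4. Library totals alone gave 489 genes for tumors and 19 for primary untreated tumors against glands. The compared groups alone gave 0 genes for primary untreated tumors against glands and 2 for recurrence under stavudine. Without both recurrent tumors, 1025 genes and 1 keratin (Krt19) were called for primary untreated tumors against glands and 5 keratins for tumors against glands, with 8 genes for recurrence under stavudine, 5 for stavudine in recurrent tumors and 5 for recurrence over both arms.

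Same-numbered replicates did not deviate together (r from -0.254 to 0.182), and the numbers were used to name libraries and not to pair them. With so few libraries per group, this check cannot show whether same-numbered libraries share a mouse or a batch. A replicate block gave 371 genes for tumors and 4 for primary untreated tumors against glands, with Krt19 at -5.78 (edgeR adjusted p = 0.0511) in the former. For stavudine in primary tumors the block gave -0.40 for both Krt14 and Krt5 and -0.0056 for Krt18, and for recurrence under stavudine 0.71 for Krt5. Limma voom gave -1.47 for Krt14, -1.71 for Krt5 and -0.0089 for Krt18 for stavudine in primary tumors, 1.78 for Krt5 for recurrence under stavudine, and 1.29 for Krt14 and 0.40 for Krt5 for the difference between the arms.

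Without both recurrent tumors the log2 values turned to 0.16 for Krt18 and 0.0605 for Krt8 in the difference between the arms, to -0.35 for Krt14, 0.028 for Krt18 and 0.0647 for Krt8 for recurrence under stavudine, to 0.13 for Krt14, 0.19 for Krt18 and 0.16 for Krt8 for stavudine in recurrent tumors, to -0.0437 for Krt14 and -0.13 for Krt18 for recurrence without stavudine, and to -0.20 for Krt14 and -0.27 for Krt5 for recurrence over both arms. Without the 2 farthest tumors r was 0.714 for Krt14 with Krt17, -0.575 for Krt8 with Krt14 and -0.576 for Krt8 with Krt19.

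Leaving out each library in turn, tumors against glands gave 535 (without gland 2) to 4255 genes (without gland 1) and 0 to 5 keratins, and primary untreated tumors against glands 0 to 3381 genes and 0 to 4 keratins. Genes called ranged from 0 to 1 for recurrence without stavudine, 0 to 100 under stavudine, 0 to 141 for stavudine in recurrent tumors, 0 to 6 for recurrence over both arms and 0 to 77 for the difference between the arms. For stavudine in primary tumors, log2 values ranged from -2.73 to 1.39 for Krt14, -0.28 to 0.27 for Krt18, -0.39 to 2.03 for Krt19, 0 to 4.15 for Krt4, -2.06 to 1.17 for Krt5 and -0.0379 to 0.30 for Krt8. For recurrence without stavudine they ranged from -0.0438 to 2.47 for Krt14 and -0.135 to 0.39 for Krt18, and under stavudine from -0.39 to 3.35 for Krt14, -1.18 to 0.0274 for Krt18, -0.98 to 1.85 for Krt5 and -0.28 to 0.0641 for Krt8. For stavudine in recurrent tumors the ranges were -1.42 to 0.67 for Krt14, -1.49 to 5.38 for Krt15, -5.22 to 0.16 for Krt19 and -0.66 to 0.0052 for Krt8. Over both arms they were -0.51 to 0.10 for Krt18 and -0.0454 to 0.28 for Krt8, and for the difference between the arms -2.27 to 1.84 for Krt14, -1.36 to 9.13 for Krt15 and -3.04 to 0.18 for Krt5. A setting without a value for Krt15 or Krt4, where a filter removed the gene, is not counted.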

Other observations

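In recurrent DMAG+STV replicate 2, the tumor with the highest Krt15, Krt79 and Krt4, several epithelial regulators also stood apart. Trp63, the transcription factor of basal and stratified epithelial cells, stood at 86.4 CPM there, against 2.2 to 23.4 CPM in the other 10 tumors and 18.5 and 12.4 CPM in glands 1 and 2. Foxa1, a factor of hormone-responsive luminal cells, stood at 6.14 CPM, against at most 1.44 CPM in the other tumors and 3.23 and 0.785 CPM in glands 1 and 2. Esr1 and Pgr of the same marker list did not rise with Foxa1. In this tumor Esr1 stood at 10.05 CPM, the lowest of all libraries, and Pgr at 0.489 CPM, within the range of the other tumors. The epithelial adhesion molecule Epcam stood at 402 CPM, the lowest of the tumors, against 743.5 to 1236 CPM in the others. Krt5 and Krt14 did not follow Trp63 in this tumor, at 1.10 and 0.897 CPM.

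Recurrent DMAG replicate 1, which had the highest Krt7, Krt8, Krt18, Krt19, Krt5, Krt14 and Krt17 of the tumors, had the highest vimentin (Vim, the intermediate filament of mesenchymal cells) as well, at 235 CPM against 28.0 to 126.5 CPM in the other tumors. Its Epcam stood at 874 CPM, within the range of the others, and its desmoplakin (Dsp) was the lowest of all libraries at 23.4 CPM.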
